A study of Mus musculus with 30 samples.

Results

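The 39 genes described here encode the machinery with which hepatocytes burn fatty acids and make ketone bodies, together with the transcription factors that switch this machinery on in fasting. The rule names the genes and uses no measured level, and all 39 were found among the 54429 gene symbols of a liver time course and, through their Ensembl identifiers, among the 55471 genes of a genotype experiment. The time course held 18 libraries of male C57BL/6J mice, with 1 library at each of ZT1, ZT5, ZT9, ZT13, ZT17 and ZT21 for mice of 2, 6 and 12 months (ZT, zeitgeber time, counts hours from lights on). The genotype experiment held 12 libraries, of WT littermates and of liver-specific *Egr-1* KO mice, at the same 3 ages and at 2 times of the day for each age. The KO came from a floxed *Egr-1* allele, backcrossed to C57BL/6J, and an Alb-Cre transgene, whose albumin promoter drives the recombinase in hepatocytes. Which other liver cells kept the gene is not given in the sources used here. The 2 times, named H and L, were those of the highest and lowest Egr-1 protein: ZT13 and ZT17 at 2 months, ZT9 and ZT21 at 6 months, and ZT5 and ZT21 at 12 months. All mice ate chow freely under 12 h of light and 12 h of dark. No age, ZT, genotype and time had more than 1 library, so the p-values measure the spread between these libraries, and the 6 ZTs of an age stood in for replicates when ages were compared. The paper's figure legend for the genotype transcriptomes gives more than 1 mouse per group. Whether a deposited library held the RNA of 1 mouse or of several is not given in the sources used here.

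Fatty acids that enter a hepatocyte are bound, joined to coenzyme A and either stored or oxidized. Mitochondria take up long-chain acyl groups through the carnitine shuttle, whose first enzyme, carnitine palmitoyltransferase, is the main point of control, and shorten them in a spiral of 4 reactions that ends in acetyl-CoA, from which ketone bodies are made in fasting. Peroxisomes shorten very long chains, and enzymes of the Cyp4a family in the endoplasmic reticulum oxidize the far (omega) end of the chain. *Ppara*, a nuclear receptor activated by fatty acids, binds a direct repeat of the half-site AGGTCA near many of these genes and raises their transcription.

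Because both the receptor and Egr-1 act through short DNA words, the 300 bases around each start site (250 before, 50 after; RefSeq, GRCm38.p6) were searched on both strands in the 30 genes that had such a window. The spaced repeat AGGNCANAGGNCA, a direct-repeat element of the kind that *Ppara* binds, occurred in 1 of the 30, against 0.451% of all genes with a window. That gene was *Fabp1*, the liver fatty acid binding protein, with the match on the opposite strand, 67 to 55 bases before the start. The Egr word GCGNGGGCG occurred in 3 of 30 (*Abcd3*, *Hadhb* and *Ppara*), against 6.27% of all genes, 11 to 3 bases before the start of *Abcd3*, 105 to 97 before that of *Ppara* and 21 to 29 after that of *Hadhb*, in its transcribed part. The lone half-site AGGTCA, which the repeat can hold, was in 7 of 30 against 18.1%, and neither the E-box CACGTG, in 8.09% of all genes, nor the D-box TTANGTAA, in 2.72%, was in any of the 30. A match describes letters only, and its absence says nothing of sites outside the window. The 4 matched stretches of the repeat and the Egr word are shown because they are the only ones in the group, with the match in capitals and each in the direction of its gene. The first is the upstream sequence of *Fabp1* at chr6:71199629-71199878 (plus strand), the second that of *Ppara* at chr15:85735526-85735775 (plus strand), and the last 2 are short stretches at the starts of *Abcd3*, chr3:121815303-121815331 (minus strand), and *Hadhb*, chr5:30155263-30155291 (plus strand).
Fabp1: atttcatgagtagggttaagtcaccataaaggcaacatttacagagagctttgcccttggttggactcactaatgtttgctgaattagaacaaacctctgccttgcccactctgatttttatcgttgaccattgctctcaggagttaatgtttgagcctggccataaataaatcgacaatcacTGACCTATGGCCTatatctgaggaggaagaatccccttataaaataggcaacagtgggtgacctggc
Ppara: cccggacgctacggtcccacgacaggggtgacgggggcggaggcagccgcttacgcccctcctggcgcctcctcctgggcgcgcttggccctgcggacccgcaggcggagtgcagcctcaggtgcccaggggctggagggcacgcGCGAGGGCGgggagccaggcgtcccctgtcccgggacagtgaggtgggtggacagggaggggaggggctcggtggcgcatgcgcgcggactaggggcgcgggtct
Abcd3: accctttcgatcgccccgCGCCCGCGCgc
Hadhb: ccgcccctcgGCGTGGGCGgacgtttgtc

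Libraries held 13375377 to 16557378 counted reads in the time course and 13747706 to 21748956 in the genotype experiment, and levels are given as CPM, a gene's counts scaled to the size and composition of its library. The lowest count of any of the 39 genes in a library was 10, for *Cyp4a31* in the time course. Per length, as FPKM (CPM per kilobase of exon) at 2 months, *Fabp1* had the highest mean level (6083), followed by the thiolase *Acaa2* (677), and *Cyp4a31* the lowest (1.15). The 6-month time-course libraries stood apart: 7 of 7 acute-phase genes, which the liver raises in inflammation, were higher than at 2 months, and their summed level was 16721 to 63857 CPM against 2550 to 3273 at 2 months, 2100 to 5216 at 12 months and 2770 to 5363 in the 6-month libraries of the genotype experiment. *Saa1*, the best known of them, was 5246 to 22661 CPM at 6 months and 80.3 to 330 at 2 months. What set these libraries apart was not tested, and the differences in level between 2 and 6 months are set beside the genotype experiment, which has too few times of the day to do the same for a rhythm.

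**Figure D1:**
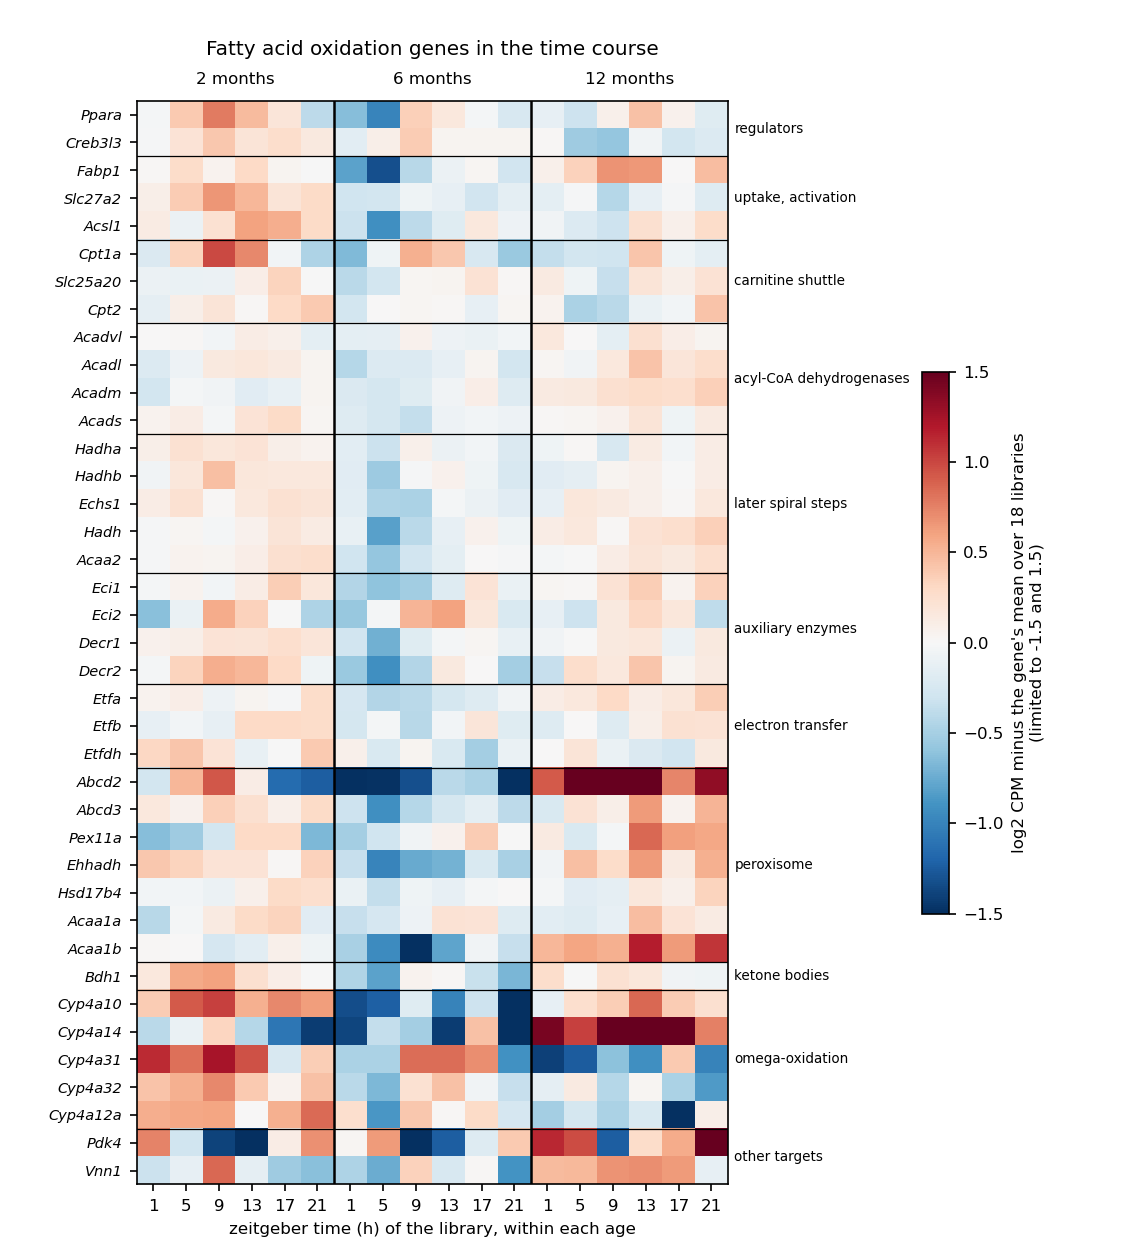
Heat map of the 39 genes (rows, grouped by role) in the 18 time-course libraries (columns, by ZT in hours within each age), coloured by log2 CPM minus the gene's own mean. Most rows are bluest at 6 months, where 28 of 39 genes had their lowest library (not counted over all genes), and *Abcd2*, *Acaa1b* and *Cyp4a14* are reddest at 12 months.

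Between 2 and 6 months, fatty acid oxidation transcripts fell in the time course. Of the 39 genes, 18 were lower at 6 months and 0 were higher (adjusted p under 0.05), where 6.01% of all 13895 genes tested were lower and 5.53% higher. Without ZT as a block, 8 were called. The log2 fold change was negative for 37 of the 39 and its median was -0.35, against 0.00 over all genes. The lowest of the 18 libraries was at 6 months for 28 of the 39, at 2 months for 5 and at 12 months for 6. That count was not made over all genes. In bulk liver, fewer hepatocytes and less of an RNA per hepatocyte cannot be told apart. The 18 came from most roles: 2 of 3 genes of binding, uptake and activation, 1 of 3 of the carnitine shuttle, 1 of 4 acyl-CoA dehydrogenases, 3 of 5 genes of the later spiral steps, 3 of 4 auxiliary enzymes for unsaturated chains, 2 of 3 of electron transfer, 3 of 7 peroxisomal genes, the ketone body gene and 2 of 5 Cyp4a genes. Neither of the 2 regulators passed.

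*Cyp4a10*, a fatty acid omega-hydroxylase, fell the most. Its level was 61.0 to 95.5 CPM at 2 months (median 74.9) and 10.6 to 41.2 at 6 months (median 21.7), so the 2 ages did not overlap. It fell by 1.72 ± 0.19 (SE, n = 6 libraries per age) on the log2 scale, 3.30-fold (adjusted p = 0.000456, lower at 6 of 6 ZTs). *Ehhadh*, the bifunctional enzyme of the peroxisomal spiral, was 223 to 293 CPM at 2 months (median 266) and 111 to 188 at 6 months (median 146), again without overlap (log2 fold change -0.85 ± 0.12, adjusted p = 0.00212). *Abcd3*, which carries acyl groups into peroxisomes, was 418 to 512 CPM (median 458) and then 211 to 359 (median 313), also apart (-0.62 ± 0.11, adjusted p = 0.00543). *Decr2*, the peroxisomal dienoyl-CoA reductase, was 135 to 205 CPM (median 175) at 2 months and 74.3 to 156 (median 101) at 6 months, with some overlap (-0.66 ± 0.13, adjusted p = 0.00981).

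At the entry to oxidation, *Slc27a2*, a fatty acid transporter that also activates very long chains, was 643 to 954 CPM at 2 months (median 762) and 492 to 576 at 6 months (median 522), a fall of 0.56 ± 0.09 on the log2 scale without overlap (adjusted p = 0.00309). *Acsl1*, the main long-chain acyl-CoA synthetase, was 501 to 809 CPM (median 638) and 282 to 593 (median 449), with overlap (-0.59 ± 0.10, adjusted p = 0.00394). *Cpt1a*, the gate of the carnitine shuttle, was 111 to 305 CPM (median 171) at 2 months and 97.1 to 222 (median 138) at 6 months. Its ranges overlapped, but at each of the 6 ZTs the 6-month library was the lower one (-0.34 ± 0.08, adjusted p = 0.0237). Without ZT1, ZT9 or ZT13 the *Cpt1a* call was lost (adjusted p = 0.0762, 0.0788 and 0.0573).

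In the mitochondrial spiral the falls were smaller. The isomerase *Eci1*, which lets unsaturated chains enter the spiral, was 119 to 159 CPM at 2 months (median 130) and 81.0 to 141 at 6 months, lower at 6 of 6 ZTs, a fall of 0.39 ± 0.08 (adjusted p = 0.0139). *Acads*, *Echs1*, *Hadhb*, *Acaa2*, *Decr1*, *Etfa* and *Etfdh* passed as well, with log2 fold changes between -0.40 and -0.29, and *Acads*, *Echs1* and *Decr1* did not overlap between the ages. *Bdh1*, which converts acetoacetate to beta-hydroxybutyrate, was 153 to 233 CPM (median 176) at 2 months and 87.8 to 159 (median 117) at 6 months, lower at 6 of 6 ZTs (-0.66 ± 0.13, adjusted p = 0.0106). The remaining calls were the peroxisomal thiolase *Acaa1b* (-0.65 ± 0.14, adjusted p = 0.0165) and *Cyp4a32* (-0.56 ± 0.16, adjusted p = 0.0485). *Ppara* itself, at 36.7 to 82.5 CPM (median 59.1) and 24.3 to 62.0 (median 44.2), did not pass (-0.47 ± 0.16, adjusted p = 0.0782, lower at 5 of 6 ZTs), and the 21 genes that did not pass lay between -1.07 for *Abcd2* and 0.16 for *Pex11a*.

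The 6-month levels were not equally low through the day. Among the 6 libraries of that age, 18 of the 39 genes had their lowest value at ZT5 and 11 at ZT1, while 16 had their highest at ZT17. ZT5 held the lowest value of 3 genes at 2 months and of 7 at 12 months, and ZT1 that of 12 and 11. ZT17 held the highest value of 11 genes at 2 months and of 4 at 12 months. These counts were not made over all genes. At 6 months, ZT5 was also the library with the most *Saa1* (22661 CPM). Leaving out 1 ZT at a time, 9 to 17 genes were called lower, with 10 without ZT1, 9 without ZT9 and 11 without ZT21. The 8 genes *Abcd3*, *Acaa1b*, *Acsl1*, *Bdh1*, *Cyp4a10*, *Decr2*, *Ehhadh* and *Slc27a2* passed whichever ZT was left out, and the other 10 lost the call without at least 1 ZT.

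Related genes outside the group moved in the same comparison. Of 18 measured genes of mitochondrial oxidation and ketogenesis that are not among the 39, 8 were lower and 2 higher at 6 months, the lower ones including *Pcca* (-0.69 ± 0.10), *Hsd17b10* (-0.49 ± 0.08) and the thiolase *Acat1* (-0.53 ± 0.09), and the higher ones carnitine acetyltransferase, *Crat* (0.66 ± 0.12). Of 31 other peroxisome genes 6 were lower and 0 higher, among them catalase, *Cat* (-0.66 ± 0.12). Of 17 other PPARα targets 4 were lower and 1 higher, and of 9 other Cyp4 genes 5 were lower, *Cyp4f14* (-0.68 ± 0.11) with the smallest p. Lipogenic genes of the fed state were also lower (5 of 10, *Thrsp* -1.35 ± 0.25), and of 7 gluconeogenic and other fasting genes only *G6pc* passed (-1.03 ± 0.21).

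Other cell types differed as well. The summed level of 7 hepatocyte markers was 53073 to 105383 CPM at 6 months and 88327 to 103535 at 2 months, with 1 of 7 called lower. Cholangiocyte markers summed to 37.5 to 145 CPM against 29.7 to 46.6 (3 of 4 tested higher), and Kupffer cell markers to 385 to 604 against 379 to 436 (3 of 6 higher). Most of the cholangiocyte sum was *Spp1*, at 25.6 to 129 CPM at 6 months and 21.4 to 36.0 at 2 months. Sinusoidal endothelial markers summed to 237 to 329 CPM against 190 to 277 (2 of 5 higher), stellate cell markers to 265 to 343 against 278 to 331 (1 of 6 lower), and red blood cell and lymphocyte markers had 0 of 4 and 0 of 5 calls. No defining hepatocyte, Kupffer or cholangiocyte marker was at 0 in all libraries of an age. The part of these cells and of the acute-phase state in the lower oxidation transcripts was not tested.

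**Figure D2:**
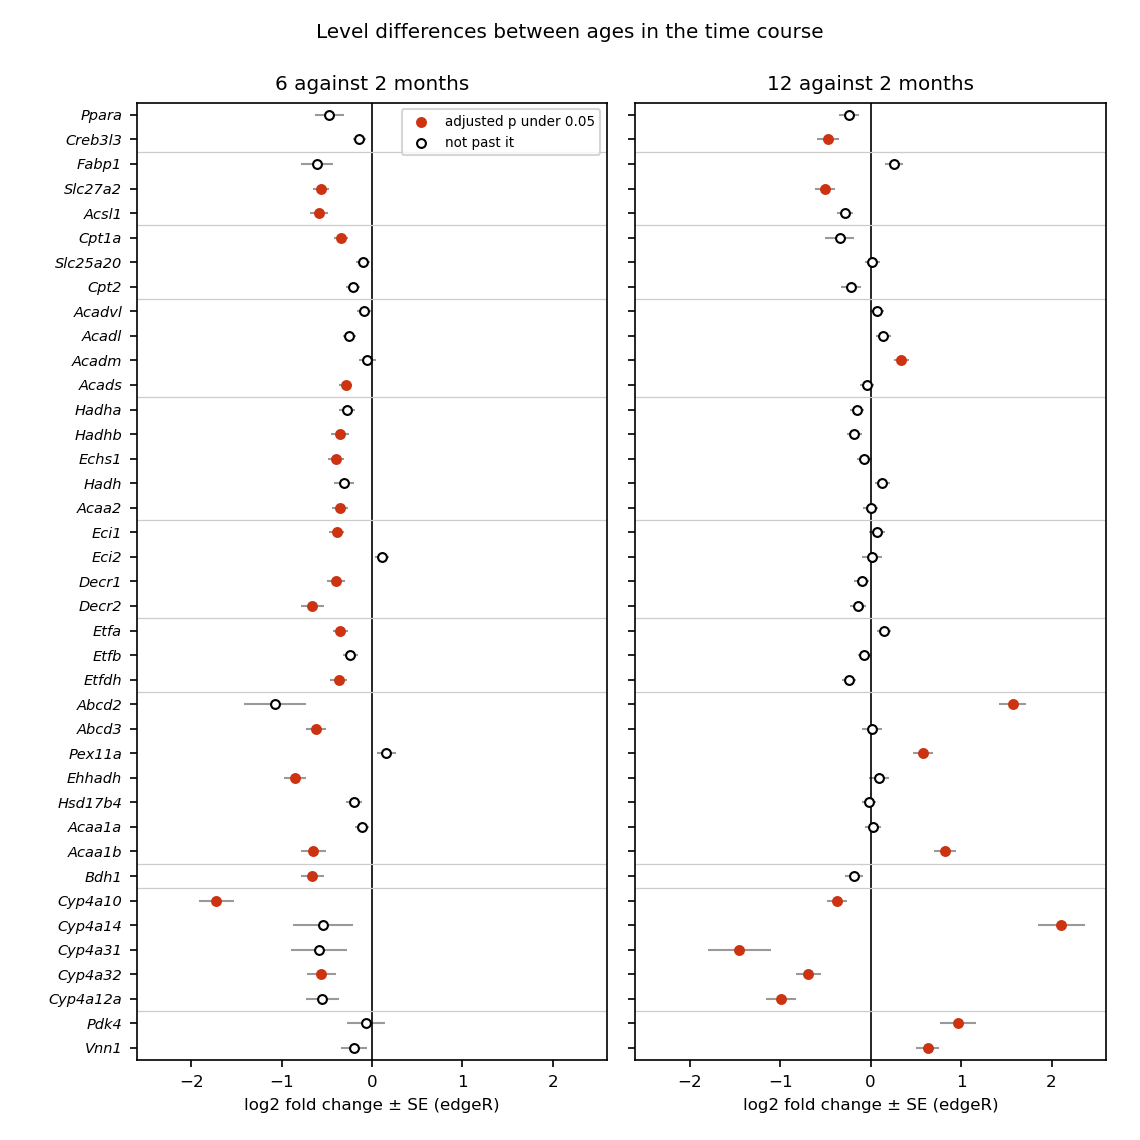
Log2 fold changes of each of the 39 genes between ages in the time course (points, edgeR; bars, SE), with filled points past an adjusted p of 0.05. At 6 months 18 filled points lie left of 0 and 0 lie right of it, and at 12 months 7 lie right and 6 left.

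Between 2 and 12 months the genes moved in both directions. Of the 39, 7 were higher at 12 months (7.67% of all 14001 genes tested) and 6 lower (6.85% of all genes), and their median log2 fold change was -0.02. The 7 that rose lay in the peroxisome (3 of 7 genes), among the acyl-CoA dehydrogenases (1 of 4) and in the fuel switch and pantetheinase pair, *Pdk4* and *Vnn1*, with *Cyp4a14* of omega-oxidation. No gene of the carnitine shuttle, the later spiral steps, the auxiliary enzymes, electron transfer or ketone bodies passed in either direction, and each of the 5 Cyp4a genes did, 1 higher and 4 lower.

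*Abcd2*, the peroxisomal carrier of very-long-chain and polyunsaturated acyl-CoA and a scarce transcript in liver, rose from 3.58 to 16.0 CPM at 2 months to 14.0 to 35.6 at 12 months (median 22.7). The ranges overlapped at the edge, but each of the 6 ZTs was higher at 12 months, with a log2 fold change of 1.57 ± 0.15 (2.97-fold, adjusted p = 2.43e-05). *Acaa1b* was 571 to 721 CPM (median 670) at 2 months and 967 to 1548 (median 1047) at 12 months, without overlap (0.82 ± 0.12, adjusted p = 0.0007). *Pex11a*, which promotes peroxisome division, was 32.5 to 63.9 CPM (median 39.3) and 44.2 to 94.4 (median 67.0), higher at 6 of 6 ZTs (0.58 ± 0.11, adjusted p = 0.0057). *Acadm*, the medium-chain dehydrogenase, rose by less, from 205 to 254 CPM (median 234) to 273 to 318 (median 293), but without overlap (0.34 ± 0.08, adjusted p = 0.0132).

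*Pdk4*, the kinase that shuts off pyruvate dehydrogenase and so spares glucose, was 2.09 to 11.2 CPM at 2 months (median 6.32) and 2.84 to 29.8 at 12 months (median 11.5). It was higher at 6 of 6 ZTs (0.97 ± 0.20, adjusted p = 0.00653), with the largest difference in CPM at ZT21, where it was 10.7 and then 29.8. *Vnn1*, the pantetheinase that frees a precursor of coenzyme A, was 16.7 to 46.8 CPM (median 22.1) and 23.7 to 41.8 (median 38.2), higher at 5 of 6 ZTs (0.63 ± 0.13, adjusted p = 0.00892). *Creb3l3*, a membrane-bound transcription factor of fasting that cooperates with *Ppara*, went from 173 to 232 CPM (median 202) to 117 to 178 (median 148), lower at 5 of 6 ZTs (-0.47 ± 0.12, adjusted p = 0.0208), but lost the call without ZT5 or ZT9. *Slc27a2* stayed low, at 448 to 595 CPM (median 551), below each 2-month library (-0.50 ± 0.11, adjusted p = 0.011). *Ppara* was 38.8 to 65.3 CPM at 12 months (median 47.3; -0.24 ± 0.11, adjusted p = 0.19), *Cpt1a* 119 to 204 (median 132; -0.34 ± 0.16, adjusted p = 0.174) and *Bdh1* 147 to 184 (median 163; -0.18 ± 0.10, adjusted p = 0.243).

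The omega-hydroxylases split. The genes lie in a cluster on chromosome 4 (GENCODE, GRCm38), with *Cyp4a12a* at chr4:115299046-115332815, *Cyp4a14* at chr4:115486200-115496142 on the opposite strand, *Cyp4a10* at chr4:115518264-115533649, *Cyp4a31* at chr4:115563649-115579015 and *Cyp4a32* at chr4:115600969-115621602. *Cyp4a14* was 12.1 to 40.6 CPM at 2 months (median 24.3), 3.20 to 43.9 at 6 months (median 17.6) and 54.4 to 191 at 12 months (median 93.8), where each library lay above all 12 of the younger ones. It rose 4.31-fold between 2 and 12 months (2.11 ± 0.26 on the log2 scale, adjusted p = 0.000229). *Cyp4a12a*, a male-predominant arachidonic acid hydroxylase, went the other way, from 187 to 336 CPM (median 276) to 64.8 to 198 (median 145), lower at 6 of 6 ZTs (-0.99 ± 0.17, adjusted p = 0.00255).

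*Cyp4a32* was 9.32 to 14.8 CPM at 2 months (median 12.2), 5.65 to 12.2 at 6 months (median 7.88) and 5.00 to 9.89 at 12 months (median 7.45), lower than at 2 months at 6 of 6 ZTs (-0.69 ± 0.14, adjusted p = 0.00549). *Cyp4a31* was scarce, at 1.42 to 3.98 CPM (median 3.12), 0.894 to 3.02 (median 1.97) and 0.636 to 2.21 (median 0.867) at 2, 6 and 12 months, and was 2.74-fold lower at 12 than at 2 months (-1.45 ± 0.35, adjusted p = 0.016), a call lost without ZT1 or ZT9. *Cyp4a10* was 42.9 to 84.8 CPM at 12 months (median 58.1), which passed narrowly (-0.37 ± 0.11, adjusted p = 0.0493) and was lost without any 1 of ZT1, ZT5, ZT9, ZT17 and ZT21. *Cyp4a10*, *Cyp4a31* and *Cyp4a32* share 12.2% to 32.6% of their 50-base stretches, *Cyp4a12a* shares 48.9% with *Cyp4a12b*, and *Acaa1b* shares 30.5% with *Acaa1a*, so reads of these genes may have been split or lost in counting, whereas *Cyp4a14* shared 0 with the other 4 and with *Cyp4a12b*.

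Outside the group, 7 of 18 other PPARα targets were higher at 12 months and 0 lower, the 4 with the smallest p being *Retsat* (0.69 ± 0.11), *Aldh3a2* (0.69 ± 0.11), *Acot1* (0.74 ± 0.12) and *G0s2* (0.70 ± 0.12). *Pparg*, the lipogenic relative of *Ppara*, rose by 1.25 ± 0.12 on the log2 scale (adjusted p = 3.1e-05). Other mitochondrial genes were called 3 higher and 3 lower of 18, with *Crat* at 1.39 ± 0.11, peroxisome genes 1 higher and 8 lower of 31, with *Nudt7* at -0.76 ± 0.10, and other Cyp4 genes 4 lower of 9, with *Cyp4a12b* at -1.98 ± 0.19. Fed-state genes were 8 of 10 higher, and their summed level was 7639 to 25068 CPM at 12 months against 5473 to 10135 at 2 months. Most of that sum was *Scd1*, at 5922 to 20259 CPM at 12 months and 3746 to 7909 at 2 months. Of 7 fasting-state genes only *Pck1* passed (-0.87 ± 0.21). Hepatocyte markers summed to 95371 to 129661 CPM (1 of 7 higher, 1 lower), lymphocyte markers to 49.5 to 293 against 20.5 to 27.9 (2 of 5 higher) and stellate cell markers to 333 to 472 against 278 to 331 (3 of 6 higher, 1 lower). Most of the 12-month lymphocyte sum was *Ighm*, at 34.7 to 274 CPM against 6.46 to 13.1 at 2 months. The part of feeding and of these cells in the levels was not tested. The 12-month count was 10 to 13 with each ZT left out, and 10 of the 13 genes passed whichever was left out.

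From 6 to 12 months, a comparison that shares its 6-month libraries with the first, 17 of the 39 genes were higher and 0 lower (5.24% of all 14047 genes were higher and 5.00% lower), with a median log2 fold change of 0.31. *Abcd2* rose 6.20-fold (2.63 ± 0.27), *Cyp4a14* 6.27-fold (2.65 ± 0.29), *Acaa1b* 2.77-fold (1.47 ± 0.18) and *Cyp4a10* 2.57-fold (1.36 ± 0.20). *Etfa*, the electron carrier's alpha subunit, was 270 to 353 CPM at 6 months (median 307) and 398 to 476 at 12 months (median 412), without overlap (0.49 ± 0.10, adjusted p = 0.0133). *Ehhadh* was 213 to 345 CPM at 12 months (median 285), above each 6-month library (0.94 ± 0.16, adjusted p = 0.00558). *Vnn1* was 13.9 to 32.8 CPM at 6 months (median 20.3), lower than at 12 months at 6 of 6 ZTs (0.82 ± 0.11, adjusted p = 0.00152). The other 10 were *Pdk4*, *Fabp1*, *Abcd3*, *Bdh1*, *Acadm*, *Acadl*, *Eci1*, *Hadh*, *Decr2* and *Pex11a*, with log2 fold changes of 0.39 to 1.03. The count was 11 without ZT as a block, and 9 to 16 with 1 ZT left out (10 without ZT1, 11 without ZT5, 9 without ZT9, 10 without ZT13 and 9 without ZT21).

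Over the day, a minority of the genes had a 24-h rhythm that passed a cosine test for 1 age. Each test came from a fit to all 18 libraries, so the spread it used was that of all ages together. At 2 months 6 of 39 did (4.72% of all 14268 genes), at 6 months 9 (4.62%) and at 12 months 2 (3.53%). *Cpt1a* was the clearest. At ZT1, ZT5, ZT9, ZT13, ZT17 and ZT21 it was 132, 193, 305, 252, 149 and 111 CPM at 2 months and 97.1, 146, 222, 202, 130 and 104 CPM at 6 months, a single afternoon peak near the end of the light phase. The fitted peak was at ZT9.87 at 2 months (peak over trough 2.69-fold, adjusted p = 0.000656) and at ZT10.7 at 6 months (2.41-fold, adjusted p = 0.00157). At 12 months it was 119, 126, 124, 204, 146 and 138 CPM, with the only high value at ZT13, and did not pass.

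*Ppara* followed a like course. It was 47.4, 63.4, 82.5, 67.2, 54.8 and 36.7 CPM at 2 months (peak ZT9.65, 2.02-fold, adjusted p = 0.0482), 31.1, 24.3, 62.0, 53.7, 47.4 and 40.9 at 6 months (peak ZT13.5, 2.11-fold, adjusted p = 0.0426) and 44.2, 38.8, 50.9, 65.3, 50.4 and 42.6 at 12 months, where it did not pass. *Eci2*, the enoyl-CoA isomerase of peroxisomes and mitochondria, was 89.2, 129, 203, 175, 137 and 100 CPM at 2 months (peak ZT11.1, adjusted p = 0.00333) and 92.9, 135, 196, 209, 155 and 118 at 6 months (peak ZT12.0, adjusted p = 0.00309). Both thus peaked around the change from light to dark, when mice begin to eat.

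*Pex11a* and *Pdk4* passed at 2 and at 12 months. *Pex11a* was 33.3, 35.8, 42.8, 63.7, 63.9 and 32.5 CPM at 2 months (peak ZT14.0, adjusted p = 0.0148) and 56.8, 44.2, 50.7, 94.4, 79.4 and 77.1 at 12 months (peak ZT16.6, adjusted p = 0.0272). *Pdk4* ran opposite to *Cpt1a*, with its lowest levels at ZT9 and ZT13. It was 11.2, 5.42, 2.54, 2.09, 7.22 and 10.7 CPM at 2 months (peak ZT22.7, 5.88-fold, adjusted p = 0.0336) and 14.6, 13.1, 2.84, 8.07, 9.81 and 29.8 at 12 months (peak ZT22.3, 4.98-fold, adjusted p = 0.0379). At 6 months it was 6.80, 10.4, 2.08, 2.83, 5.81 and 8.72 CPM and did not pass.

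At 6 months *Fabp1* (peak ZT15.9), *Decr2* (ZT15.0), *Acaa1b* (ZT19.9), *Eci1* (ZT17.4) and *Acsl1* (ZT17.3) passed as well, with adjusted p between 0.0222 and 0.0378. *Fabp1* was 1795, 1248, 2332, 2937, 3183 and 2552 CPM in that order of ZT, a day course with its low at ZT5. *Acaa1b* was 489, 354, 234, 393, 657 and 538 CPM. In the same libraries *Alb*, the hepatocyte marker, also passed the fit for a rhythm (adjusted p = 0.0473), with its lowest level at ZT5 (38019 CPM) and its highest at ZT17 (86947 CPM), and the part of that swing in the rhythms of these genes was not tested.

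By edgeR's fit of 2 ages at a time, *Abcd2* was the 1 gene of the 39 whose rhythm differed between ages. At ZT1 to ZT21 it was 6.93, 11.9, 16.0, 9.07, 3.78 and 3.58 CPM at 2 months (peak ZT7.78, 4.65-fold, adjusted p = 0.00186) and 2.19, 3.01, 3.38, 6.36, 6.08 and 2.38 at 6 months (peak ZT13.9, 3.08-fold, adjusted p = 0.034). The peak was 6.12 h later at 6 months, and the change passed (adjusted p = 0.0357, 0.230% of all genes), though not without ZT5, ZT13, ZT17 or ZT21, where 0 of the 39 passed. With all 18 libraries in 1 fit 0 passed as well, and DESeq2 called 2. At 12 months it was 15.9, 33.2, 35.6, 24.2, 14.0 and 21.2 CPM, with a fitted peak at ZT7.71 (adjusted p = 0.0581). Between 2 and 12 months edgeR called 0 changes of rhythm among the 39 (0% of all genes), with 4 at an unadjusted p under 0.05 and 2 by DESeq2. Between 6 and 12 months it also called 0 (0.0214% of all genes), with 4 at an unadjusted p under 0.05 and 1 by DESeq2. For both comparisons, the shares of all genes at the unadjusted p and by DESeq2 are not given here. For *Cpt1a* the fitted peak was 4.39 h later at 12 than at 2 months and the log2 amplitude 0.41 smaller, values that did not pass.

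**Figure D3:**
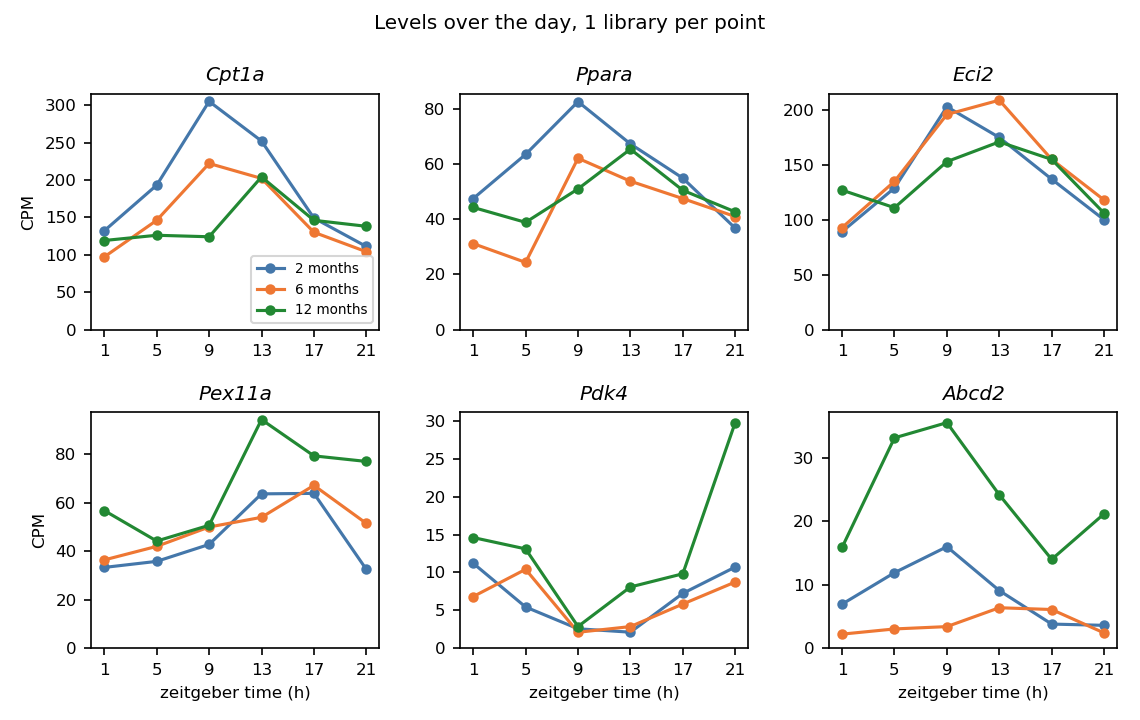
Levels in CPM over ZT in hours for 6 of the genes, 1 library per point, with 1 line per age. *Cpt1a* and *Ppara* peak near ZT9 at 2 months, *Pdk4* has its low at ZT9 or ZT13, and *Abcd2* peaks at ZT9 at 2 and 12 months and at ZT13 at 6 months.

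The rhythm counts moved with single time points. They were 3 to 7 at 2 months (3 without ZT13 and 3 without ZT17), 2 to 7 at 6 months (2 without ZT5, 2 without ZT13 and 4 without ZT17) and 0 to 2 at 12 months (0 without ZT9 or ZT13, and 1 without ZT1, ZT5 or ZT17). Among the other lists, 6 of 18 PPARα targets outside the group had a rhythm at 2 months, as did 6 at 6 months and 4 of them at 12 months, and of 18 other mitochondrial genes 0, 1 and 0. *Txnip* and *Acot4* were among the rhythmic targets at each of the 3 ages.

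The genotype experiment asked how the loss of Egr-1 in hepatocytes affects the liver transcriptome. *Egr1* counts in the libraries labelled KO were below those of their WT partners in 4 of 6 pairs. In the other pairs, 2 months L (1.45 CPM in WT, 7.43 in KO) and 12 months H (5.83 and 6.11), they were not, so the libraries are named here by their labels. Of the 4, the 2 months H pair differed little, at 2.57 CPM (95% exact Poisson interval 1.91 to 3.39) in WT and 1.99 (1.43 to 2.70) in KO. Of the 39 genes, 0 differed between the libraries labelled KO and WT over the 6 pairs by edgeR (1.36% of all 14843 genes did). At an unadjusted p under 0.05 there were 8, and the share of all genes at that threshold is not given here. The median log2 fold change of the 39 was -0.04, with 23 negative and 16 positive. Without the 2 pairs in which *Egr1* was not lower the count was also 0, as it was at H alone and at L alone. The first of these fits still held the 2 months H pair. The genotype effect did not pass a test of difference between ages in any of the 39 (0.0135% of all genes did), with 0 at an unadjusted p under 0.05. Between H and L it passed in 0 of 39 as well (0.00674% of all genes), with 1 at an unadjusted p under 0.05.

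*Abcd2* came nearest. In WT and then KO it was 12.5 and 2.43 CPM at 2 months H, 3.79 and 4.48 at 2 months L, 12.2 and 2.55 at 6 months H, 7.47 and 5.33 at 6 months L, 17.4 and 10.2 at 12 months H, and 26.9 and 8.31 at 12 months L. It was lower in the library labelled KO in 5 of 6 pairs. The log2 fold change was -1.25 ± 0.30 (2.38-fold lower, adjusted p = 0.0786), and limma voom called it, as did edgeR without a filter on low counts. The next were *Fabp1* (-0.39 ± 0.12, adjusted p = 0.152, lower in 5 of 6 pairs), which DESeq2 called, as did edgeR without that filter, and *Ehhadh* (-0.27 ± 0.09, adjusted p = 0.181). *Hadha*, the alpha subunit of the trifunctional protein, was lower in 6 of 6 pairs by a small amount (-0.16 ± 0.06, adjusted p = 0.216), and *Decr2* was higher in 5 of 6 and nearly equal in the other, at 254 and 255 CPM (0.17 ± 0.06, adjusted p = 0.241).

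Some fuel switch and omega-oxidation genes differed widely within single pairs. *Cyp4a14* was 11.8 CPM (95% exact Poisson interval 10.1 to 13.7, counting error only) in WT and 153 (147 to 159) in KO at 2 months L, but lower in the library labelled KO in the other 5 pairs, at 67.8 and 28.0, 116 and 74.5, 197 and 180, 301 and 230, and 195 and 93.3 CPM. *Cyp4a10* was 73.9 and 159 CPM in the 2 months L pair and lower in KO in the other 5: 112 and 98.0, 192 and 131, 278 and 252, 311 and 230, and 167 and 142. *Vnn1* was 12.7 and 38.4 CPM in that pair too. *Pdk4* was 56.7 (53.1 to 60.5) and 27.1 (24.7 to 29.7) at 6 months L and 16.3 and 8.44 at 12 months L, but 6.43 and 8.79, 3.58 and 5.06, 6.25 and 5.94, and 40.6 and 45.8 in the other 4 pairs. *Cyp4a31* was 0.825 to 5.09 CPM and *Cyp4a32* 8.11 to 19.7 CPM over the 12 libraries, and *Cyp4a12a* 135 to 290.

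*Cpt1a* in WT and KO was 349 and 302, 206 and 303, 256 and 319, 355 and 277, 188 and 211, and 217 and 249 CPM in the pairs 2 months H and L, 6 months H and L, and 12 months H and L. In the same order *Ppara* was 116 and 88.6, 85.3 and 80.3, 81.5 and 109, 128 and 92.0, 75.7 and 80.1, and 79.6 and 83.9 CPM. *Bdh1* stayed between 229 and 291 CPM in all 12 libraries. None of the 3 had a direction shared by all pairs.

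**Figure D4:**
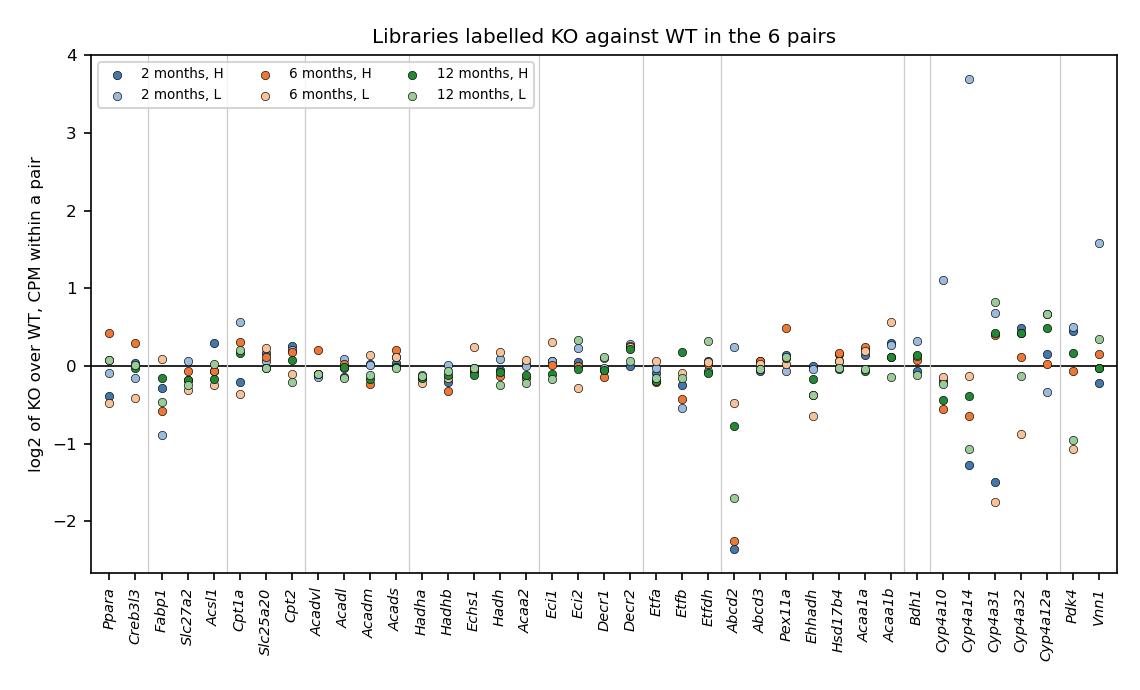
Log2 ratio of the library labelled KO over its WT partner for each of the 39 genes, 1 point per pair of age and time. Most points lie near 0, *Abcd2* lies below it in 5 of 6 pairs, and the 2 months L pair stands alone at 3.70 for *Cyp4a14*.

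Libraries labelled KO also differed in liver cell markers. Hepatocyte markers summed to 46856 to 59618 CPM in KO and 75702 to 94141 in WT, without overlap, and all 7 had a negative log2 fold change, with 2 called, *Alb* and *Apob*. Most of the gap lay in *Alb*, at 26339 to 36312 CPM in KO and 52419 to 66783 in WT, and the other 6 markers summed to 20517 to 23306 and 22580 to 27358 CPM, with some overlap. Kupffer cell markers summed to 321 to 468 against 291 to 380 CPM (0 of 6 called). Of 18 other PPARα targets *Retsat* alone passed (-0.54 ± 0.07, adjusted p = 0.00973), and of the other mitochondrial, peroxisome, Cyp4, receptor partner, fed-state and fasting-state genes 0 did. The part of the marker differences in the values above was not tested.

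The genotype experiment also offered other mice of the same ages, collected at other hours, so that age and hour cannot be told apart there. The 4 libraries of an age were 2 WT and KO pairs of 1 hour each, and the fit by age treats them as 4 separate samples, so where the libraries of a pair deviate together its p-values are too small. With genotype and H or L as covariates, 1 of the 39 genes was higher at 6 than at 2 months and 0 were lower (1.37% of all 14389 genes were higher and 1.24% lower). That gene was *Vnn1*, at 12.7 to 38.4 CPM at 2 months and 45.2 to 56.9 at 6 months in the 4 libraries of each age (1.19 ± 0.24, adjusted p = 0.0332), and the log2 fold change was positive for 30 of the 39, with a median of 0.09. Of the 18 genes that were lower at 6 months in the time course, 2 had a negative log2 fold change here. *Cyp4a10*, the gene that fell most there, was 73.9 to 159 CPM at 2 months and 131 to 278 at 6 months (0.94 ± 0.31, adjusted p = 0.139). The difference between the experiments was not tested.

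Among the 39 genes, the 12-month differences had more in common between the experiments. In the genotype experiment 3 of the 39 genes were higher at 12 than at 2 months (5.15% of all genes) and 4 lower (6.52%), and 5 of these were also called in the time course, each in the same direction: *Abcd2*, *Acaa1b* and *Vnn1* higher, and *Creb3l3* and *Slc27a2* lower. *Abcd2* was 2.43 to 12.5 CPM in the 4 libraries of 2 months and 8.31 to 26.9 in those of 12 months (1.46 ± 0.36, adjusted p = 0.0235). *Acaa1b* was 1406 to 1922 and 2342 to 2911 CPM (0.71 ± 0.14, adjusted p = 0.00898), *Vnn1* 12.7 to 38.4 and 48.8 to 70.3 (1.46 ± 0.25, adjusted p = 0.00397), *Creb3l3* 321 to 359 and 193 to 196 (-0.82 ± 0.10, adjusted p = 0.0011), and *Slc27a2* 888 to 1089 and 656 to 806 (-0.41 ± 0.09, adjusted p = 0.0161). None of *Acaa1b*, *Vnn1*, *Creb3l3* and *Slc27a2* overlapped between the 2 ages. The other 2 calls were *Acaa1a* (-0.47 ± 0.08) and *Acadvl* (-0.29 ± 0.08). Of the 13 genes called at 12 months in the time course, 12 had the same sign here, the exception being *Cyp4a10* (0.95 ± 0.32, adjusted p = 0.076). Shared signs were not counted over all genes at either age, so nothing particular to the 39 can be read from these counts. *Cyp4a14*, at 11.8 to 153 and 93.3 to 301 CPM, did not pass here (1.76 ± 0.67, adjusted p = 0.123). With the WT libraries alone, 0 of the 39 passed at either age.

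**Figure D5:**
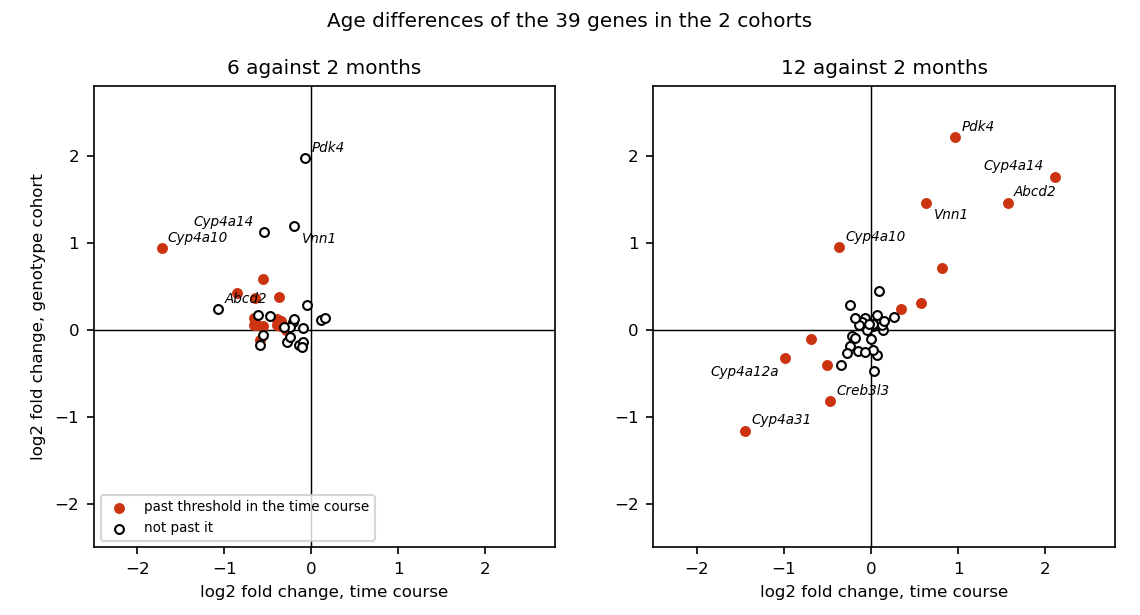
Log2 fold change of each of the 39 genes in the genotype experiment (vertical) against that in the time course (horizontal), with filled points past an adjusted p of 0.05 in the time course. In the 6-month panel 16 of 18 filled points lie above 0 on the vertical axis, and in the 12-month panel 12 of 13 have the same sign on both axes.

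Both experiments had libraries at ZT21 for 6 and 12 months, which removes the hour from that comparison. From 6 to 12 months, 34 of the 39 genes were higher and 5 lower in the time course (median log2 ratio 0.40). In the WT libraries 15 were higher and 24 lower (median -0.13), and in those labelled KO 5 were higher and 34 lower (median -0.20). With 1 library on each side these are values without a test. The counts and medians were not made over all genes, so nothing particular to the 39 can be read from them.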

How the data were processed

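The authors deposited raw counts of poly(A) RNA-seq reads per gene in mouse liver. Per the submitters' processing notes, reads were trimmed with fastp, aligned to mm10 with HISAT2 and counted with featureCounts (versions and annotation not given in the sources used here), in 2 tables with no normalization. Both tables were used whole (0 value columns left out) and tested separately. Levels are CPM from library totals and TMM factors, so a gene's CPM depends on the other genes of its library. FPKM divided CPM without TMM factors by the summed exon length.

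Tests were edgeR 4.0.16 quasi-likelihood F-tests in R 4.3.3, on genes passing filterByExpr, with Benjamini-Hochberg adjustment over all genes tested and a threshold of 0.05. Ages were compared with ZT as a block, genotypes with the 6 pairs of age and time as a block, and rhythms by a pair of 24-h cosine and sine terms. Deviations from the age means correlated between libraries of the same ZT, weakly in some (r = 0.06 to 0.52, across genes). Deviations from the genotype means correlated within pairs (0.06 to 0.64), and these also hold the differences between ages. Age in the genotype experiment was added after the time course was seen. Alternatives used DESeq2 1.42.0 and limma 3.58.1. The scripts were tested on simulated data. Counts of 10 or more per library bounded the precision, and intervals of single libraries cover counting error only.

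The 39 genes and the gene lists were chosen with earlier results of these data known, and the acute-phase list after the values were seen. Values were set out for *Ppara*, *Cpt1a*, *Bdh1*, *Pdk4*, the 5 Cyp4a genes, up to 8 members per comparison with the smallest p past the threshold, every member past a rhythm-change or interaction threshold, and up to 4 genes per other list. *Saa1*, *Alb*, *Spp1*, *Ighm* and *Scd1* were named after their values were seen. Some genes of the other lists are not reported here.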

Additional observations from a re-analysis of the deposited data

Results flagged for a closer look

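Each of the 117 groups of 6 time-course libraries (39 genes at 3 ages) and each of the 39 sets of 6 pair differences was searched for a value far from the others. There were 6 such values in the time course and 6 among the pairs, where chance flags about 1 group in 20.

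At ZT5 of 6 months, the library with the most *Saa1*, *Abcd3* was 211 CPM (the other 5 libraries 297 to 359) and *Hsd17b4*, the other bifunctional enzyme of peroxisomes, 257 CPM (others 304 to 331). *Cyp4a12a* was low at ZT13 of 2 months, 187 CPM (others 270 to 336), and at ZT17 of 12 months, 64.8 CPM (others 131 to 198). *Vnn1* was high at ZT9 of 2 months, 46.8 CPM (others 16.7 to 23.7), and low at ZT21 of 12 months, 23.7 CPM (others 36.0 to 41.8).

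Among the pairs, the log2 ratio of KO over WT at 2 months L stood apart for *Cyp4a14* (3.70, others -1.28 to -0.13), *Vnn1* (1.59, others -0.22 to 0.35) and *Cyp4a10* (1.11, others -0.55 to -0.14). That was 1 of the pairs in which *Egr1* was not lower in KO than in WT. The ratio at 6 months H stood apart for *Pex11a* (0.49, others -0.06 to 0.14) and *Acadvl* (0.20, others -0.14 to -0.10), and at 6 months L for *Echs1* (0.24, others -0.12 to -0.02).

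The rhythm of *Abcd2* differed between 2 and 6 months (adjusted p = 0.0357). For 4 genes each of the 6 ZTs was lower at 6 than at 2 months in the time course. In the genotype experiment each of the 4 comparisons of these genes, H with H and L with L within a genotype, was higher. That difference was not tested. H was ZT13 at 2 months and ZT9 at 6 months, and L was ZT17 and ZT21, so age and hour cannot be told apart there. The count of 4 genes was not made over all genes. The median log2 ratio of the time course and the range in the genotype experiment were -1.62 and 0.42 to 1.91 for *Cyp4a10*, -0.57 and 0.00 to 0.75 for *Acaa1b*, -0.36 and 0.31 to 0.46 for *Etfdh*, and -0.32 and 0.02 to 0.18 for *Decr1*. No gene did so between 2 and 12 months.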

How the results depend on the processing

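Without the ZT block, 8 of 39 genes were called between 2 and 6 months in place of 18, and 11 between 6 and 12 months in place of 17, and without the replicate block of pairs 0 were called between genotypes, as with it. With 1 ZT left out, the count was 9 to 17 at 6 against 2 months, 10 to 13 at 12 against 2, 9 to 16 at 12 against 6, 3 to 7 for rhythms at 2 months, 2 to 7 at 6 months (4 without ZT17) and 0 to 2 at 12 months, and 0 to 1, 0 to 1 and 0 to 0 for changes of rhythm between 2 and 6, 2 and 12, and 6 and 12 months. With 1 pair left out, 0 to 0 genes differed between genotypes. The calls that passed under all 12 alternatives were *Abcd3*, *Bdh1*, *Cyp4a10*, *Decr2*, *Ehhadh* and *Slc27a2* at 6 against 2 months, and *Abcd2*, *Acaa1b*, *Acadm*, *Cyp4a12a*, *Cyp4a14*, *Cyp4a32* and *Slc27a2* at 12 against 2. Counts of rhythms at 2, 6 and 12 months were 12, 21 and 7 at an unadjusted p under 0.05, where the share of all genes is not given here. By DESeq2 they were 15 at 6 months and 6 at 12 months, at an adjusted p under 0.05. By an exact permutation test, whose p was not adjusted, the count was 1 at 12 months. The shares of all genes under these alternatives are not given here either. The change of rhythm between 2 and 6 months was called for 0 genes with all 18 libraries in 1 fit and for 2 by DESeq2, that between 2 and 12 months for 2 by DESeq2 and that between 6 and 12 months for 1. Between genotypes 2 genes were called without a filter on low counts, 1 by DESeq2 and 1 by limma voom. In the genotype experiment, 6 against 2 months gave 3 calls by DESeq2 and 0 with the WT libraries alone, and 12 against 2 months gave 0 with those alone, where 2 libraries of each age remained. Among genotype differences that did not pass, the log2 fold change turned sign for *Ppara* (0.01 without the 6 months L pair, 0.03 at H alone), *Cpt1a* (-0.01 without the pairs in which *Egr1* was not lower), *Pdk4* (0.18 at H alone) and *Cyp4a14* (0.03 without the 12 months L pair, 0.06 without the 2 months H pair, 0.59 at L alone). The causes of these changes were not tested. *Cyp4a31*, with 10 to 58 counts in a time-course library, was the gene most limited by depth.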
